A study of Mus musculus with 20 samples.

Results

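Genes of EGF receptor signalling and of its feedback were followed in small intestinal crypts of the mouse. The set has 8 genes, found by symbol among the 23020 genes of the deposited table. They are the receptors Egfr, Erbb2 and Erbb3, the ligands Areg and Ereg, the inhibitors Errfi1 and Lrig1, and the kinase Ptk6. The set was chosen by the measured differences of Errfi1 and Ptk6 between genotypes and housings in these same libraries. The values of those 2 genes are therefore given as a description, with no p-value.

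The 20 libraries of crypts from C57BL/6 mice fell into 4 groups. Wild-type (6 libraries) and Xiap-/- mice (4) were kept with their own genotype, here called housed apart, or both genotypes shared housing for 4 weeks (5 libraries each), here called co-housed. Xiap encodes an inhibitor of apoptosis. The labels name no cage, no part of the gene that was removed, and no animal behind a library, so the p-values measure the spread between libraries, which may be technical in part. In mice housed apart the genotypes did not share cages, so a genotype difference there cannot be told apart from one between cages. Libraries of a group may also share a cage, and the fit takes no account of it. The extraction text speaks of liver while every other label gives small intestinal crypts.

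EGF receptors are tyrosine kinases of the cell surface that pair with each other when a ligand binds and then start the RAS-ERK and PI3K-AKT cascades. In crypts this pathway drives division of the stem and progenitor cells, and it is held in check by inhibitors that active receptors themselves induce. Errfi1, also called MIG6, binds the active kinase domain and sends the receptor to degradation. Lrig1 lowers receptor levels at the membrane and marks stem cells whose expansion it limits. Ptk6, also called BRK, is an intracellular kinase of differentiating gut epithelium that associates with these receptors.

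Areg and Errfi1 are the members whose region before the start site held both a cyclic AMP response element and a TATA sequence, so these regions are shown. RefSeq entries on GRCm38.p6 were found for 5 of the 8 members, and the 250 bases before the start were searched. Erbb3, Ereg and Ptk6 had no entry. In both sequences, on the plus strand, capitals mark TGACGTCA (the element) and TATAAA.

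Errfi1 at chr4:150854820-150855069: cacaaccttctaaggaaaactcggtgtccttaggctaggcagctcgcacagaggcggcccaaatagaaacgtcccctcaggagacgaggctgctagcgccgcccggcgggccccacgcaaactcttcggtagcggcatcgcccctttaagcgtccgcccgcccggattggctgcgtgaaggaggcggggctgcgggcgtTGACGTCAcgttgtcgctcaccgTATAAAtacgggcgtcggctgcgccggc
Areg at chr5:91139349-91139598: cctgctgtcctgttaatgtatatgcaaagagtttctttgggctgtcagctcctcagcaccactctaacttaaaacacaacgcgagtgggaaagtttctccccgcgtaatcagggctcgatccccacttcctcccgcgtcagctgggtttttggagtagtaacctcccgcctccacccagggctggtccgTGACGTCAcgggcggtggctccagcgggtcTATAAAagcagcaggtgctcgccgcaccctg

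The element began 51 bases before the start in Errfi1 and 61 bases before it in Areg, and TATAAA 28 and 31 bases before it. Read on both strands, TGACGTCA occurred in 1.55% and TATAAA in 12.4% of 32851 regions of this length, and both together in 0.119%. A second listed start of Errfi1, and those of Egfr, Erbb2 and Lrig1, had neither. The AP-1 motif TGANTCA (6.75% of all regions) and the STAT motif TTCNNNGAA (7.02%) were in none of the regions of the 5 members, and no motif searched contains another. These matches describe letters and not binding.

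In the genome (GRCm38, GENCODE M21), Errfi1 lies on chromosome 4 (150853919 to 150868892) and Ptk6 on chromosome 2 (181193721 to 181202789). Egfr (16752203 to 16918158) and Erbb2 (98412470 to 98437716) share chromosome 11, and Erbb3 lies on chromosome 10 (128567523 to 128589652). Areg (91139599 to 91148432) and Ereg (91074622 to 91093646) are neighbours on chromosome 5, with 46.0 kb and no annotated gene between them. Lrig1 lies on chromosome 6 (94604529 to 94700158). The ends of Lrig1 and Erbb2, where tags of this assay fall, overlap Slc25a26 and Mien1 on the other strand, so some of their tags may belong to these neighbours if strand was not kept.

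The assay counted 3' ends of poly(A) RNA with molecular identifiers. Levels below are the log2 values that the authors deposited, which ran from -3.88 to 16.30, and a difference of 1 is a 2-fold change of the deposited values. Their transformation is not given in the sources used here, and rare genes sit on a plateau near their own level, so differences may be smaller than those of the transcripts, and linear ratios below are those of the deposited values. Counts per library are unknown, so no counting error is given. As a stand-in for depth, the percentage of very rare genes (mean below -3) lying more than 0.015 above their own median was taken. Its group means lay between 7.71% and 8.77%, except in Xiap-/- mice housed apart, with 17.1% ± 10.5 (SD, n = 4). Crypt transcripts were abundant (the Paneth cell defensin Defa24 averaged 14.17), and of 8 stromal and endothelial markers only Vim reached the minimum mean for testing, as did only Ttr of 4 hepatocyte markers. Immune transcripts were present as well. All 5 T cell markers reached the minimum (Gzma averaged 9.16), as did 3 of 5 myeloid markers (Fcer1g at 5.56) and the plasma cell gene Igha (5.17). Among mice housed apart, the Xiap transcript ranged over 6.56 to 7.08 in wild-type and 6.25 to 6.48 in Xiap-/- animals. Among co-housed mice these ranges overlapped (6.36 to 6.84 and 6.29 to 6.91), and a 3' tag can lie outside the removed part, so it does not check the genotype.

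Differences were tested by limma over the 9521 genes with a mean of at least 3.32, which is log2 of 10, and passing means an adjusted p (Benjamini-Hochberg) under 0.05. Of the 8 members 7 were tested. Ereg, with a mean of 2.55, lay below the minimum. In the comparisons where Errfi1 or Ptk6 passed, the count of members is part of how the set was chosen, and nothing is read from it.

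Of the 8 members, Errfi1 and Ptk6 were the ones past the threshold: Errfi1 was lower in co-housed than in separately housed Xiap-/- mice, and Ptk6 was lower in Xiap-/- than in wild-type mice housed apart.

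**Figure D1:**
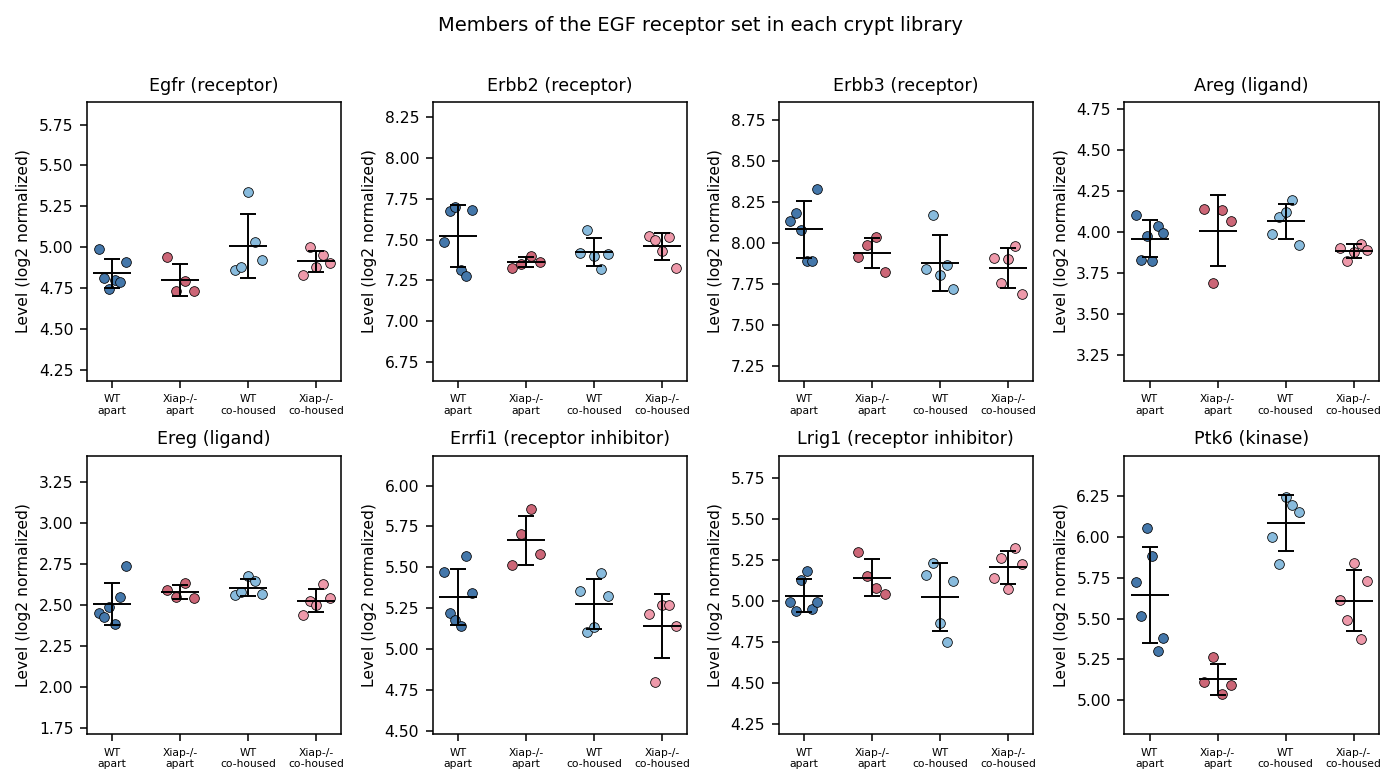
Level of each member (log2 normalized values, y axis, the same span of 1.7 in every panel) in the 4 groups (x axis), with a point per library and bars for the mean ± SD. Ptk6 runs from a mean of 5.13 in Xiap-/- mice housed apart to 6.08 in co-housed wild-type mice, Errfi1 is highest in Xiap-/- mice housed apart at 5.66, and the groups of the other members overlap in each of the 4 comparisons.

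None of the receptors was past the threshold. Egfr, which binds both ligands of the set, had means of 4.84 ± 0.09 in wild-type and 4.80 ± 0.10 (SD) in Xiap-/- animals when housed apart, and of 5.01 ± 0.20 and 4.91 ± 0.07 when co-housed. Its highest value, 5.34, came from co-housed wild-type replicate 3, and all groups overlapped. Erbb2, which has no ligand of its own and serves as the partner of the others, had 7.52 ± 0.19 and 7.36 ± 0.03 in mice housed apart and 7.42 ± 0.09 and 7.46 ± 0.08 in co-housed mice. Wild-type mice housed apart spread over 7.28 to 7.70, wider than any other group, and covered the values of all of them. Erbb3, the neuregulin receptor that signals mainly to PI3K, had 8.08 ± 0.17 and 7.94 ± 0.09 in mice housed apart and 7.88 ± 0.17 and 7.85 ± 0.12 in co-housed mice. Its mean was highest in wild-type mice housed apart, and its housing difference in wild-type mice was -0.20 ± 0.09 (95% interval -0.39 to -0.02, limma adjusted p = 0.47).

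The ligand Areg, amphiregulin, had means of 3.96 ± 0.11 in wild-type and 4.01 ± 0.22 (SD) in Xiap-/- animals when housed apart, and of 4.06 ± 0.11 and 3.88 ± 0.04 when co-housed. Among co-housed mice the Xiap-/- values were 3.90, 3.82, 3.88, 3.93 and 3.89 and the wild-type values 3.99, 4.09, 4.12, 4.20 and 3.92. Only the lowest wild-type and the highest Xiap-/- value crossed. The difference was -0.18 ± 0.09 (95% interval -0.36 to -0.00497, limma adjusted p = 0.40). Ereg, epiregulin, had group means of 2.51 to 2.61, and its 20 values ran from 2.38 to 2.74, with overlap in every comparison. Its spread within groups, 0.09, exceeded that of 7.73% of genes with a similar mean.

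Errfi1 was highest in Xiap-/- mice housed apart and lower in co-housed mice of that genotype. The values in Xiap-/- mice housed apart were 5.51, 5.70, 5.86 and 5.58, and in co-housed Xiap-/- mice 5.22, 4.80, 5.27, 5.27 and 5.14. These groups did not overlap, as for 2.98% of all genes in this direction. In wild-type mice housed apart the lowest value was 5.14, the median 5.28 and the highest 5.57, and co-housed wild-type mice had 5.35, 5.11, 5.14, 5.46 and 5.32. The wild-type groups covered nearly the same range, and 1 wild-type library housed apart, at 5.57, reached into the range of Xiap-/- mice housed apart.

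In order of their means, Errfi1 stood at 5.14 ± 0.20 in Xiap-/- co-housed, 5.28 ± 0.15 in wild-type co-housed, 5.32 ± 0.17 in wild-type housed apart and 5.66 ± 0.15 in Xiap-/- housed apart mice. The 3 lower groups differed from their neighbours in this order by less than their spread. The housing difference in Xiap-/- mice was -0.52 ± 0.11 (SE), or 0.70 times on the linear scale, and was past the threshold, where 0.147% of all genes passed and 0.0945% fell. In wild-type mice it was -0.04 ± 0.10. The genotype difference was 0.34 ± 0.10 in mice housed apart and -0.14 ± 0.10 in co-housed mice, neither passing. The change of the genotype difference with housing was -0.48 ± 0.15 and did not pass over all genes.

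Errfi1 also moved with the depth stand-in and with single libraries. With that covariate the housing difference in Xiap-/- mice was -0.43 ± 0.12 and no longer passed. Nor did it pass without co-housed Xiap-/- replicate 1, 2 or 4 (differences of -0.54, -0.44 and -0.56) or without Xiap-/- replicate 2, 3 or 4 housed apart (-0.51, -0.46 and -0.55). The genotype difference in mice housed apart passed without wild-type replicate 5 (0.39), where 7.32% of all genes passed. Some marker lists had medians above 0 by genotype in mice housed apart and below 0 by housing in Xiap-/- mice, and the 3 epithelial lists with medians past 0.1 in both are given here. The absorptive list had a median difference of 0.17 by genotype in mice housed apart and -0.16 by housing in Xiap-/- mice, with 0 of 6 tested markers passing in either by limma. By group its summed level (mean of the 6) ranged over 11.48 to 12.31 and 11.91 to 12.36 in the 2 genotypes housed apart (wild-type first), and over 11.73 to 11.94 and 11.65 to 12.00 in the co-housed ones. The 5 enteroendocrine markers had medians of 0.14 and -0.14, and of them Chgb, a protein of hormone granules, passed in the first (0.47 ± 0.11 SE, limma adjusted p = 0.047) and was at -0.44 ± 0.12 in the second. Ttr, on the hepatocyte list, passed in the first as well (0.42 ± 0.10, limma adjusted p = 0.035) and was at -0.29 ± 0.10 in the second, while the other 3 hepatocyte markers lay below the minimum. The 4 tuft cell markers had medians of 0.19 and -0.14, with 1 (Ltc4s, -0.52 ± 0.11 SE, limma adjusted p = 0.028) passing in the second. Their mean level ranged over 4.05 to 4.12 in Xiap-/- mice housed apart and over 3.78 to 3.98 in wild-type mice housed apart, against 3.80 to 4.04 and 3.70 to 4.00 in co-housed wild-type and Xiap-/- mice. By housing in wild-type mice the absorptive, enteroendocrine and tuft medians were -0.13, -0.07 and 0.03. The dividing cell list had the signs of the Ptk6 differences. Its medians were -0.08 and -0.11 by genotype (housed apart, then co-housed) and 0.12 and 0.11 by housing (wild-type, then Xiap-/-). Of its 4 markers 1 lay above 0 in each genotype comparison, and 0 passed in any. The part of depth or cell make-up in the values of Errfi1 and Ptk6 was not tested further. In bulk RNA fewer cells of a type and less transcript per cell cannot be told apart.

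Lrig1, the second inhibitor, had means of 5.03 ± 0.10 in wild-type and 5.14 ± 0.12 (SD) in Xiap-/- animals when housed apart, and of 5.03 ± 0.21 and 5.21 ± 0.10 when co-housed. The Xiap-/- means were above the wild-type means in either housing, by 0.11 ± 0.09 and 0.18 ± 0.09 (SE, limma adjusted p = 0.43 in co-housed mice). Its housing difference was -0.01 ± 0.09 in wild-type and 0.06 ± 0.10 in Xiap-/- mice, whereas that of Errfi1 in Xiap-/- mice was -0.52.

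Of the 5 tested members other than Errfi1 and Ptk6, 0 passed by limma between the co-housed genotypes (background 0.0315%), between wild-type housings (0%) or for the interaction of genotype and housing (0.0105%). The smallest adjusted p-values were 0.40, 0.47 and 0.73. At an unadjusted p under 0.05 there were 1 (Areg), 1 (Erbb3) and 0, against 12.0%, 10.2% and 7.05% of all tested genes. The 20 differences of these genes over the 4 comparisons lay between -0.20 and 0.18, and their 95% intervals reached from -0.39 to 0.37. These intervals leave room for changes of that size.

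Ptk6 stood lower in Xiap-/- crypts in both housings and higher in co-housed crypts of both genotypes. Its level in wild-type mice housed apart had a lowest value of 5.30, a median of 5.62 and a highest value of 6.05. In Xiap-/- mice housed apart it was 5.11, 5.26, 5.04 and 5.09, and all 4 values lay below all 6 wild-type values. Groups were apart in this way, in either direction, for 1.87% of all tested genes, and with the Xiap-/- values lower for 1.05%. Co-housed wild-type mice had 6.00, 5.83, 6.24, 6.20 and 6.15, and co-housed Xiap-/- mice 5.61, 5.49, 5.84, 5.37 and 5.73. The highest co-housed Xiap-/- value just exceeded the lowest co-housed wild-type value, while all 5 co-housed Xiap-/- values lay above the 4 of Xiap-/- mice housed apart. The co-housed genotypes were apart for 3.09% of all genes (1.33% higher and 1.75% lower in Xiap-/- mice), and the housings of Xiap-/- mice for 5.63% (2.65% higher when co-housed).

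The group means of Ptk6 fell in the order Xiap-/- housed apart (5.13 ± 0.10, SD, n = 4), Xiap-/- co-housed (5.61 ± 0.18, n = 5), wild-type housed apart (5.64 ± 0.29, n = 6) and wild-type co-housed (6.08 ± 0.17, n = 5). The middle groups differed by less than their spread, and in wild-type mice the housings overlapped, as for all but 0.525% of genes (0.305% higher and 0.221% lower when co-housed). The genotype difference was -0.51 ± 0.12 (SE) in mice housed apart and -0.47 ± 0.12 in co-housed mice. On the linear scale these are 0.70 and 0.72 times the wild-type level. The housing difference was 0.44 ± 0.11 in wild-type and 0.48 ± 0.12 in Xiap-/- mice. Only the genotype difference in mice housed apart was past the threshold, which is part of how the set was chosen. In that comparison 0.452% of all genes passed in either direction (0.294% rose and 0.158% fell). Between the co-housed genotypes 0.021% of genes passed as higher and 0.0105% as lower, and between the housings of Xiap-/- mice 0.0525% as higher. The genotype differences of the 2 housings were 0.04 ± 0.17 (SE) apart.

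Among wild-type mice housed apart, Ptk6 was lowest in 2 libraries. Replicates 5 and 6 lay at 5.30 and 5.38, and the other 4 between 5.52 and 6.05. Without these 2 libraries the genotype difference in mice housed apart was -0.67 ± 0.11, and the housing difference in wild-type mice fell from 0.44 to 0.29 ± 0.11. As these 2 held the lowest values, leaving them out raised the wild-type mean to 5.79. The direction of both shifts was thus fixed, and nothing is read from it. With the depth stand-in as a covariate the genotype difference was -0.58 ± 0.15 and no longer passed. The call was also lost without any 1 of wild-type replicates 1 to 4 housed apart (differences of -0.50, -0.54, -0.43 and -0.47) or of Xiap-/- replicates 1 to 4 housed apart (-0.51, -0.56, -0.49 and -0.50). It was lost as well, at -0.51, without co-housed wild-type replicate 1 or 4 or co-housed Xiap-/- replicate 1. The housing difference of Ptk6 passed in wild-type mice without wild-type replicate 4 housed apart (0.49), and in Xiap-/- mice without wild-type replicate 5 housed apart (0.48). In these fits 0.693% and 0.672% of all genes passed.

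**Figure D2:**
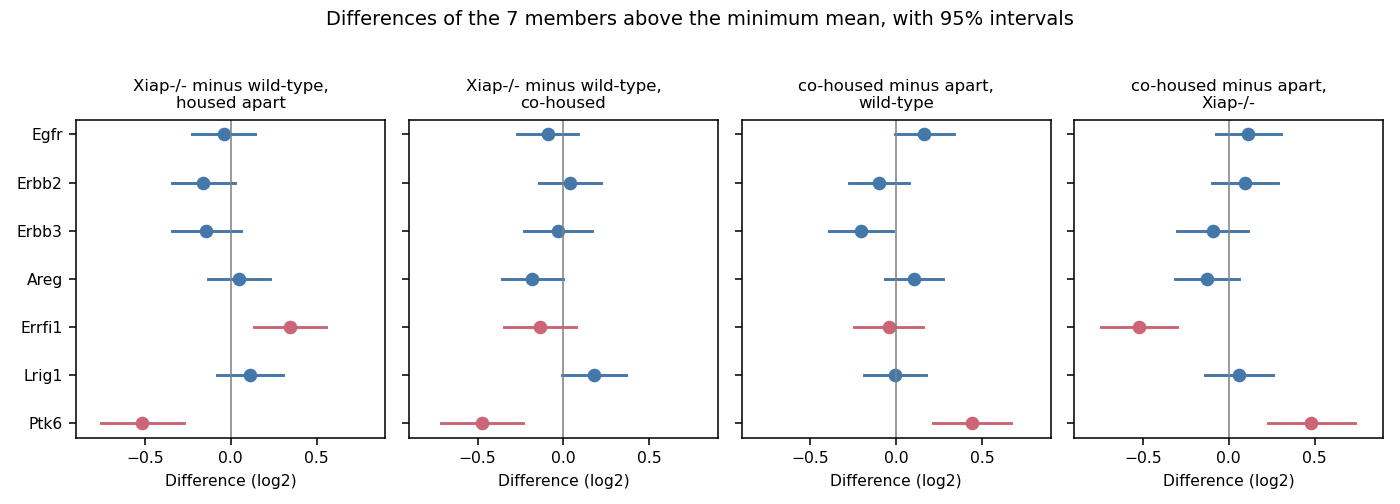
Difference of each tested member on the log2 scale (x axis) in 4 comparisons (panels), with the 95% interval from limma as a line. Errfi1 and Ptk6 chose the set, so their intervals are a description and no test. Ptk6 lies near -0.5 in both genotype panels and near 0.45 in both housing panels, Errfi1 at -0.52 by housing in Xiap-/- mice, and the other 5 members between -0.20 and 0.18.

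Within groups, Erbb2 and Erbb3 tended to rise and fall together from library to library, though other genes lay closer to each of them. Deviations from the group means, which leave out genotype and housing, were compared for all 21 pairs of the 7 tested members over the 20 libraries. Erbb2 and Erbb3 had a Pearson r of 0.74 (permutation p = 0.002, 0.042 after adjustment over the pairs) and a Spearman rho of 0.69 (permutation p = 0.0054, adjusted 0.11). Without the 2 libraries farthest from the median of Erbb2, r was 0.63, and with the depth stand-in removed it was 0.74. Among all tested genes, the 3 nearest to Erbb2 had r of 0.81 to 0.85, and those nearest to Erbb3 had 0.76 to 0.82. The next pairs were Errfi1 with Lrig1 (r = -0.43, rho = -0.45, permutation p = 0.066 and 0.063) and Egfr with Areg (r = 0.40, rho = 0.52, permutation p = 0.098 and 0.027), with adjusted p of 0.69 and 0.44 for the first and 0.69 and 0.28 for the second.

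Across all tested genes, the deviations of Ptk6 were most like those of Tifa (r = 0.83 over 20 libraries, rho = 0.80), an adaptor that carries signals from bacterial sugar metabolites to NF-kB. These likeness values are descriptions of the closest of 9520 genes and have no p. Without the 2 libraries farthest from the median of Ptk6, r with Tifa was 0.70. Tifa also followed the group order of Ptk6, with means of 5.39 ± 0.09 (SD) in Xiap-/- housed apart, 5.98 ± 0.35 in Xiap-/- co-housed, 6.01 ± 0.44 in wild-type housed apart and 6.43 ± 0.12 in wild-type co-housed mice. Its own differences did not pass by limma (genotype housed apart -0.61 ± 0.18, adjusted p = 0.12). Next came Dcaf5, a substrate receptor of a ubiquitin ligase (r = 0.81), and the clone-named RP23-277D1.1 (0.80), and the most opposite was Ift52, of the transport machinery of cilia (-0.82). Dcaf5 and RP23-277D1.1 did not follow the group order of Ptk6. In mice housed apart Dcaf5 had means of 4.78 in Xiap-/- and 4.75 in wild-type animals, and RP23-277D1.1 had 3.85 and 3.81.

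**Figure D3:**
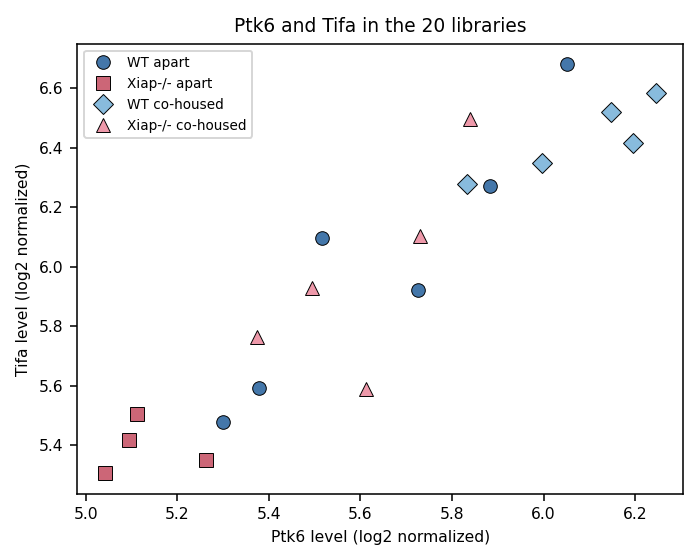
Level of Tifa (y axis) against that of Ptk6 (x axis), both log2 normalized values, with a point per library and a marker per group. Xiap-/- mice housed apart sit at the low corner with Ptk6 at 5.04 to 5.26, and co-housed wild-type mice at the high corner with 5.83 to 6.24.

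The genes nearest to Errfi1 by the same measure were Flot1, which encodes a protein of membrane rafts (r = 0.88, rho = 0.86), Lin37, a subunit of a repressor complex of cell cycle genes (0.86, 0.82), and Pxk (0.83, 0.85). The most opposite was Ccdc34 (-0.85, -0.83). Flot1 had its highest group mean in Xiap-/- mice housed apart (5.92), but wild-type mice housed apart were close at 5.87, and its lowest was in co-housed wild-type mice (5.69). Its housing difference in Xiap-/- mice was -0.12 ± 0.11 (SE, limma adjusted p = 0.72), against -0.52 for Errfi1, and that of Lin37 was -0.08 ± 0.10. Pxk, like Errfi1, had its highest group mean in Xiap-/- mice housed apart (7.97). Its genotype difference in mice housed apart was 0.31 ± 0.10 and its housing difference in Xiap-/- mice -0.28 ± 0.11 (limma adjusted p = 0.14 and 0.33). Ccdc34 had -0.29 ± 0.13 and 0.33 ± 0.14 in these comparisons (limma adjusted p = 0.28 and 0.37). For the other members, the gene most opposite to Egfr was Gm10269 (r = -0.84), to Erbb2 Il15ra (-0.80) and to Erbb3 Akt1 (-0.81). To Areg it was Fam160b2 (-0.75) and to Lrig1 Chp2 (-0.77). Akt1, the kinase of the PI3K branch, had a rho of -0.69. Without the 2 farthest libraries its r was -0.69. The nearest to Egfr were St5, Zfyve9 and Prdm16, to Erbb2 Lsm14b, Phc2 and Emc10, to Erbb3 Ccdc6, Edem1 and Vav1, to Areg Fdft1, Bmp1 and Adora2b, and to Lrig1 Cdc25b, Kpna4 and Prps2, with r of 0.73 to 0.85.

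In the rest of the pathway no gene was past the threshold by limma. A list of 104 further genes was drawn up by role, of which 103 were in the table and 83 were tested. By limma, 0 of 83 passed in each of the 5 comparisons. Of all tested genes, 0.452% passed by genotype housed apart, 0.0315% by genotype co-housed and 0% by housing in wild-type mice. Between the housings of Xiap-/- mice 0.147% passed, and for the interaction 0.0105%. Beside such shares 0 of 83 is close to the background, and nothing is read from it. At an unadjusted p under 0.05 there were 10 by genotype housed apart, 12 by genotype co-housed, 8 by housing in wild-type mice, 7 between the housings of Xiap-/- mice and 6 for the interaction, or 12.0%, 14.5%, 9.64%, 8.43% and 7.23%. Over all tested genes these shares were 15.8%, 12.0%, 10.2%, 11.3% and 7.05%. In the same order, 20, 32, 44, 56 and 49 of the 83 lay above 0, with medians of -0.06, -0.03, 0.01, 0.06 and 0.03. Of all tested genes 49.1%, 51.1%, 48.1%, 50.2% and 49.1% lay above 0. Without wild-type replicate 5 housed apart, 7 of the 83 passed by genotype in mice housed apart (Grb2, Mapk3, Rps6ka3, Ccnd1, Lyn, Arap1 and Stat3), while the number of all genes passing rose from 43 to 697. The 7 are 8.43% of the 83, against 7.32% of all genes in that fit. Without wild-type replicate 4 housed apart, Rictor passed by housing in wild-type mice, or 1.2% of the 83, against 0.693% of all genes.

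**Figure D4:**
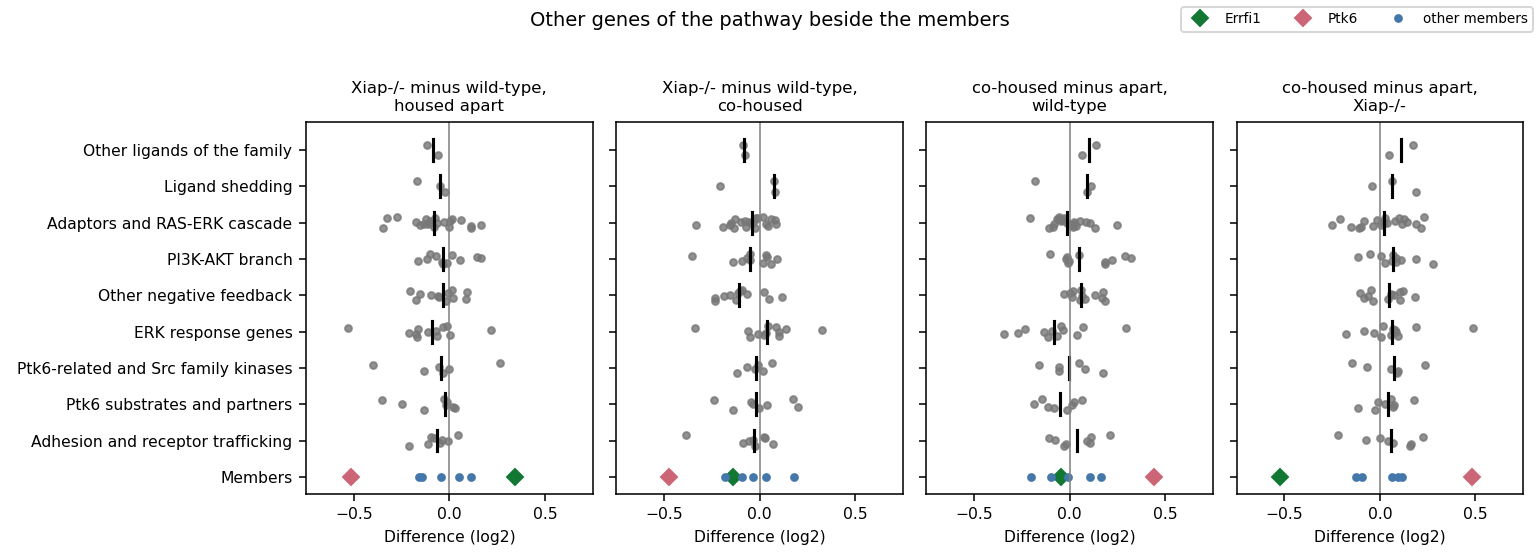
Differences on the log2 scale (x axis) of the 83 tested pathway genes by role (rows, a grey point per gene, a black bar at the median) in 4 comparisons (panels), with the members in the lowest row. Pathway genes run from -0.53 to 0.26 by genotype in mice housed apart, where Ptk6 is at -0.51, and from -0.25 to 0.49 by housing in Xiap-/- mice, where Errfi1 is at -0.52.

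Among other ligands, only Hbegf and Tgfa were tested, with differences of -0.12 ± 0.11 and -0.06 ± 0.11 (SE) by genotype in mice housed apart. Epgn and Nrg1 lay at -3.05 and -3.25, and the receptor Erbb4 at -3.31, which is close to the lowest values of the table. The sheddases Adam10 and Adam17, which release ligands from the membrane, had -0.02 ± 0.10 and -0.05 ± 0.09. Of 21 genes of the adaptors and the RAS-ERK cascade, the ERK kinase Map2k2 had 0.01 ± 0.11 and the ribosomal S6 kinase Rps6ka1 -0.07 ± 0.08. Of 11 tested in the PI3K-AKT branch, the regulatory subunit Pik3r1 had -0.04 ± 0.11.

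Of the 12 other negative regulators tested, Cblc, a ubiquitin ligase of active receptors, had a housing difference of -0.10 ± 0.09 (SE) in Xiap-/- mice and Socs4 one of 0.11 ± 0.10, and the differences of the list ran from -0.10 to 0.18 with a median of 0.05. Of 12 ERK response genes, the largest difference was that of the cyclin Ccnd1. It had -0.53 ± 0.20 by genotype in mice housed apart and 0.49 ± 0.21 by housing in Xiap-/- mice (limma adjusted p = 0.21 and 0.39). Junb had -0.18 ± 0.12 in both. Among the relatives of Ptk6, Src had a genotype difference of -0.13 ± 0.09 in mice housed apart and Frk, its close family member, -0.03 ± 0.10. Of the substrates and partners of Ptk6, the adaptor Stap2 had 0.03 ± 0.10 and the transcription factor Stat3 -0.35 ± 0.10 (limma adjusted p = 0.076). Of the adhesion and trafficking genes, Cdh1 had -0.21 ± 0.10 and Ctnnb1 -0.11 ± 0.09.

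How much of each member's variation lay between the groups is given here for all members. Groups accounted for 74.1% of the sum of squares of Ptk6 and 58.2% of that of Errfi1, which chose them, and for 21.5% to 34.2% in the other members. The median over tested genes was 22%. The spread of Ptk6 within groups was also wide, above that of 90.0% of genes with a similar mean, while Egfr exceeded 15.9% and Errfi1 68.5% of theirs.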

How the data were processed

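RNA of 20 crypt libraries was profiled by 3' sequencing with molecular identifiers. The deposited values are normalized by the authors on a log2 scale. The submitters' processing notes name DESeq2 1.18.1 and GRCm38.p6, and the transformation, aligner and counter are not given in the sources used here. Column names were matched to sample titles. No pseudocount was added to the deposited values. The fit used limma 3.58.1 under R 4.3.3, as 1 model of 4 group means over all libraries (16 residual degrees of freedom), trended robust moderation, two-sided tests and Benjamini-Hochberg adjustment over 9521 genes with a mean of at least 3.32. The fit was tested on simulated data. Precision by depth is unknown. Pairs of members were compared by 100000 permutations of libraries within groups, two-sided. The members, the lists and the rule for naming genes were chosen with earlier results of these data known. Named are all members, passing genes of each list or else the 2 with the highest mean, and for each tested member the 3 most like genes and the 1 most unlike. The values of 1 gene that this rule names are not reported here. Grb2, Mapk3, Rps6ka3, Lyn, Arap1, Rictor, Epgn, Nrg1, Ltc4s, Chgb and Ttr were named after their values were seen. Gene positions came from the GENCODE M21 annotation and promoters from RefSeq. Alternatives were other filters, moderation, groups, weights, a depth covariate, centring, a replicate block and leaving out libraries.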

Additional observations from a re-analysis of the deposited data

Results flagged for a closer look

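Of the 32 sets of values formed by the 8 members in 4 groups, 2 held a library far from the rest by Dixon's test, and chance alone gives about 1 in 20. Areg in Xiap-/- replicate 2 housed apart lay at 3.69, against 4.07 to 4.14 in the other 3 libraries (a gap of 0.836 of the range). Without that library the genotype difference of Areg in mice housed apart was 0.16 in place of 0.05. Errfi1 in co-housed Xiap-/- replicate 2 lay at 4.80, against 5.14 to 5.27 in the other 4 (a gap of 0.721 of the range). Without it the housing difference of Errfi1 in Xiap-/- mice was -0.44 in place of -0.52 and did not pass.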

How the results depend on the processing

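Counts of genes past the threshold depended on the model, and the cause was not tested. By genotype in mice housed apart, 43 passed, against 27 with a stricter filter (mean of at least 5), 65 without trend and robust moderation, 12 with only the groups compared, 385 with array weights, 3 with the depth covariate, 350 with the replicate block, 694 without wild-type replicates 5 and 6 housed apart, and 9 to 697 leaving out each library. By genotype in co-housed mice, 3 passed, against 10 with no filter, 0 stricter, 142 with only the groups compared, 159 with weights, 40 without those 2 libraries, and 1 to 12 leaving out each. By housing in wild-type mice, 0 passed (969 at an unadjusted p under 0.05), against 5 with no filter, 5 with weights, and 0 to 66 leaving out each. By housing in Xiap-/- mice, 14 passed, against 9 stricter, 23 without trend and robust moderation, 169 with only the groups compared, 224 with weights, 1 with the depth covariate, 189 with the replicate block, 126 without the 2 libraries, and 2 to 64 leaving out each. For the interaction, 1 passed, against 0 stricter, 4 with weights, 10 with the replicate block, 33 without the 2 libraries, and 1 in each fit leaving out a library. A fit of only the groups compared was not made for the interaction.

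No difference that passed changed sign in any setting run. Leaving out each library in turn, the genotype difference of Ptk6 in mice housed apart was -0.58 to -0.43 and passed in 9 of 20 fits, and the housing difference of Errfi1 in Xiap-/- mice was -0.57 to -0.44 and passed in 14. With only the groups compared, that of Ptk6 did not pass, while its other genotype and housing differences passed in some settings (co-housed genotypes and Xiap-/- housings with only the groups compared, with weights and without the 2 libraries). In the order of these settings, 1.49%, 1.67% and 0.42% of all genes passed between the co-housed genotypes. Between the Xiap-/- housings 1.78%, 2.35% and 1.32% passed. Without the 2 libraries these differences of Ptk6 stayed at -0.47 and 0.48. Their SE was 0.10 and 0.11, against 0.12 for both in the main fit. Whether replicate numbers pair the libraries was not tested against chance. Same-numbered libraries had correlations of deviations from -0.42 to 0.25, 7 of 18 above 0.1, and 6 of 20 libraries correlated best with their own number. Between the genotypes housed apart these correlations were 0.07, 0.09, 0.24 and 0.25. With the replicate block the differences of Ptk6 and Errfi1 were -0.58 and -0.55, both passing, and the housing difference of Ptk6 in Xiap-/- mice passed at 0.50. With that block 3.68% of all genes passed by genotype in mice housed apart and 1.99% by housing in Xiap-/- mice. Of the 83 pathway genes, 4.82% passed by genotype in mice housed apart with weights (4.04% of all genes), 4.82% with the replicate block (3.68%) and 7.23% without the 2 libraries (7.29%), and in co-housed mice 4.82% with weights (1.67%) and 2.41% with only the groups compared (1.49%).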
